A study of Saccharomyces cerevisiae with 36 samples.

Results

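The a-specific mating genes MFA1, MFA2, STE2, STE6, BAR1 and AGA2 were followed across strain backgrounds, ploidy and RNA decay mutants of the budding yeast Saccharomyces cerevisiae. They were taken by systematic name (YDR461W, YNL145W, YFL026W, YKL209C, YIL015W and YGL032C, in the same order), with no threshold on a measured value. They are 6 of the 5798 genes and of the 9765 features in the deposited table, and all 6 passed the filter on low values.

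In yeast the mating type locus decides which mating genes a cell uses. In a cells the transcription factor Mcm1 activates the a-specific genes, while in alpha cells and in a/alpha diploids the alpha2 protein binds beside Mcm1 at the same operator and represses them. MFA1 and MFA2 encode precursors of the pheromone a-factor, and STE6 encodes the ABC transporter that exports it. STE2 encodes the receptor for alpha-factor, BAR1 the secreted protease that degrades alpha-factor, and AGA2 the binding subunit of the a-agglutinin used in cell adhesion. Xrn1 is the cytoplasmic exonuclease that degrades RNA from a 5′ monophosphate end, Dcp2 is the decapping enzyme that makes such ends, and Upf1 is a helicase of nonsense-mediated decay.

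Strand-specific RNA-seq covered 32 libraries, in groups of 2 labelled biological replicates, and CAGE, which maps capped 5′ ends, covered 4 samples. The rRNA-depleted libraries number 24. They pair xrn1-delta cells with wild type (WT) in diploid SK1 (YAM2068, xrn1D/xrn1D, and YAM2067), haploid SK1 (YAM2087 and YAM1977), W303 (YAM97 and YAM92) and S288C (YAM6 and YAM1). In S288C they also pair dcp2-7 cells (YAM2283) with YAM1, both at 37 °C, and upf1-delta cells (YAM202) with a further set of YAM1 libraries. Terminator, an exonuclease that digests RNA with a 5′ monophosphate, was applied to RNA of 4 of the S288C groups (dcp2-7 and WT at 37 °C, xrn1-delta and WT), giving 8 more libraries. The CAGE cultures of dcp2-7 and WT spent 2 h at 37 °C. No strain is described beyond these labels. The sources used here do not give mating type, the number of independent clones of a genotype, or the growth temperature of the other cultures.

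The unit throughout is the deposited density, which is reads per nucleotide on a scale where snoRNAs sum to the same value in all libraries. It can be compared between genes. Comparing it between libraries assumes that they held equal amounts of snoRNA, which was not tested. The libraries held 11021562 to 68466587 recovered reads on features when rRNA-depleted and 13208233 to 23350952 when Terminator-treated. The deleted genes were checked first. XRN1 had densities of 0 to 0.00399 in the 10 xrn1-delta libraries, against 0.334 to 1.62 in the 16 WT libraries. NAM7, which encodes Upf1, had 0.000869 and 0.00151 in upf1-delta, against 0.581 and 0.589 in its WT. The dcp2-7 allele cannot be checked by level. The 6 genes were measured with unequal depth: each had between 86 and 58668 reads in every rRNA-depleted S288C or W303 library, between 15 and 2924 reads in xrn1-delta SK1 libraries, and between 3 and 389 reads in WT SK1 libraries, haploid and diploid together.

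Markers of mating type separated SK1 from the other backgrounds. The 5 alpha-specific genes MF(ALPHA)1, MF(ALPHA)2, STE3, SAG1 and AFB1 summed to densities of 37.9 to 38.4 in haploid xrn1-delta SK1 and 22.2 to 23.6 in haploid WT SK1, against 0.123 to 0.141 in WT W303 and 0.194 to 0.196 in WT S288C. The 6 a-specific genes summed to 0.748 to 0.811 in haploid xrn1-delta SK1 and 0.123 to 0.148 in haploid WT SK1, against 11.8 to 15.1 in WT W303 and 25.3 to 25.8 in WT S288C. HMRA1, which carries the a1 regulator found in a and a/alpha cells, had 0 reads in all 4 haploid SK1 libraries, where 3 reads would have given a density of 0.00160 to 0.00208. It had 0.0302 to 0.0629 in WT SK1 diploids and 0.593 to 0.609 in WT S288C. The mating type cassettes hold copies of the same sequence, so values of their genes are uncertain. S288C and W303 cells thus had the a-specific pattern that names these genes, and haploid SK1 cells had the alpha-specific one. The background and the mating type pattern cannot be told apart in comparisons of SK1 with S288C.

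Replicates of the WT SK1 diploid stood apart from each other. Its replicate 1 had an a-specific sum of 0.184 and its replicate 2 one of 0.0493. The alpha-specific sum went the other way, with 3.28 in replicate 1 and 8.12 in replicate 2. The 11 haploid-specific genes, which a1 and alpha2 together repress in a/alpha cells, summed to 0.346 and 0.945 in these libraries, against 4.08 to 4.51 in haploid WT SK1. Calls on the deposited scale for the 6 genes, the other mating genes and SUT612 that rest on the WT diploid are given with and without each of its libraries. Calls with libraries scaled to equal mRNA medians rest on both of its libraries and were not repeated without either. The share of all mRNAs called is not given here for that scale or for fits without a library.

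The operator upstream of each gene is shown because it is what defines the family: Mcm1 binds its centre and alpha2 binds its flanks. The 16-base match to the Mcm1 core (TTNCC, 6 bases of any kind, GGNAA) is in capitals within 32 bases, read 5′ to 3′ on the strand of the gene in the yeast genome build R64 (RefSeq), whose coordinates the table shares for all 6 genes.
MFA1: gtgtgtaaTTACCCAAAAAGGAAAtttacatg
MFA2: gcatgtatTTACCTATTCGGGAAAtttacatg
STE2: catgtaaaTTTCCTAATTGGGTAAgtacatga
STE6, nearer site: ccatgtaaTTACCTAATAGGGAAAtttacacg
STE6, farther site: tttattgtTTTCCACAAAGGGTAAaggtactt
BAR1: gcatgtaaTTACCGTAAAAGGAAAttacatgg
AGA2: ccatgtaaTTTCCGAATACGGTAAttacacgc

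These sites lie on chr4:1384941-1384972 (MFA1), chr14:352162-352193 (MFA2), chr6:82351-82382 (STE2), chr11:46477-46508 and chr11:46536-46567 (STE6), chr9:322077-322108 (BAR1) and chr7:437101-437132 (AGA2). STE6 and AGA2 are on the minus strand and the other 4 genes on the plus strand. The cores begin between 205 and 291 bases upstream of the start codon. All 6 genes held the core, on either strand, within 500 bases upstream, as did 110 of the 5775 nuclear genes (1.91%). A longer form that adds an alpha2 half-site (CATGT, 2 bases of any kind, TTNCC, 6 bases of any kind, GG) was found upstream of 6 genes of 5775 (0.104%), on either strand and overlapping the core. Of these 6 genes 5 were a-specific ones, and the remaining gene was GYP8, which is transcribed away from STE2 across the same intergenic region. MFA1 lacked the longer form upstream of it. A match describes letters in a window and is no measurement of binding.

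Capped 5′ ends lay between the operators and the start codons. The upstream stretches of MFA2 and STE6 are printed as a pair that differs in the number of Mcm1 cores; capitals mark the Mcm1 cores and the last base, which is the first capped position in the WT list.
MFA2, chr14:352114-352373, plus strand: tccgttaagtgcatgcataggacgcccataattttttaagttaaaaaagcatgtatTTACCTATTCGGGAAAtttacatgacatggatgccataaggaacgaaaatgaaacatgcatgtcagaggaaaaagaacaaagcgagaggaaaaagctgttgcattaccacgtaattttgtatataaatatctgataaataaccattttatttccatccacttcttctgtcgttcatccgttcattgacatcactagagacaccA
STE6, chr11:46342-46595, minus strand: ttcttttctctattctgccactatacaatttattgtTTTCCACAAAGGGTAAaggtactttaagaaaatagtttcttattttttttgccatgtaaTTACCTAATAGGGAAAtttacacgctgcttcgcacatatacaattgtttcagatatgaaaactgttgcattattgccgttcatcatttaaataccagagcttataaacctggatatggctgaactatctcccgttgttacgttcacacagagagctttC

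The CAGE lists, pooled by the authors over replicates and without heights, hold 10183 positions for dcp2-7 and 9340 for WT. Each list had 9 positions near the 6 genes, all upstream of the start codon and none inside a gene. MFA1 had capped positions 28 and 23 bases before its start codon in both lists, STE6 47 and 28, STE2 30 and AGA2 55. MFA2 had a position 41 bases before its start codon in both lists and another at 44 in the dcp2-7 list, while BAR1 had one at 37 in both and another at 32 in the WT list. A position within 300 bases upstream was also present for 75.6% of nuclear genes in dcp2-7 and 75.7% in WT, so its presence does not set the a-specific genes apart.

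**Figure D1:**
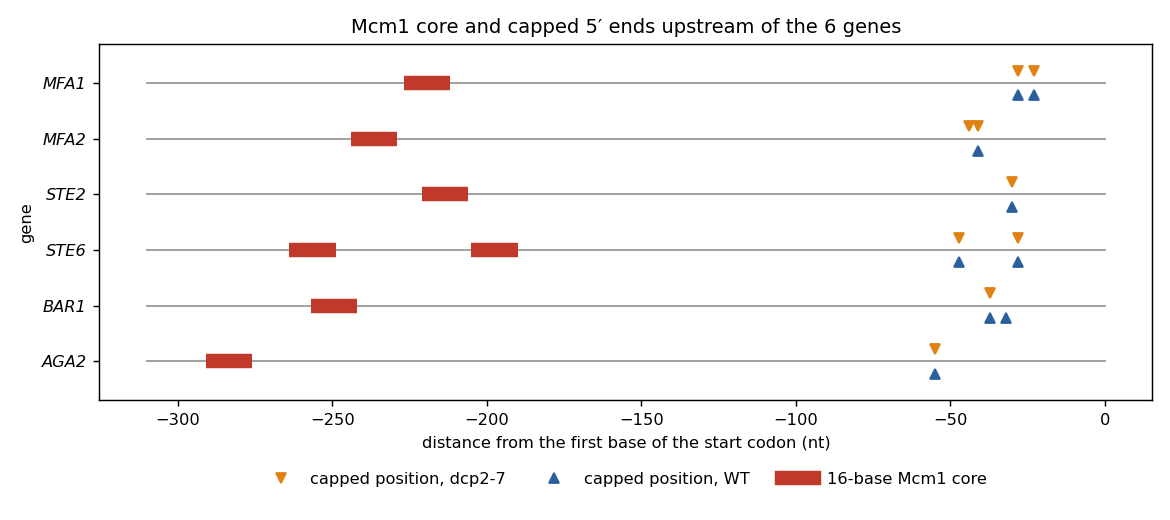
The map gives, for each of the 6 genes, the distance in nucleotides from the first base of the start codon (x axis) of the 16-base Mcm1 core (red bar) and of capped positions in the pooled dcp2-7 list (orange, above the line) and WT list (blue, below it). Every core begins 205 to 291 bases upstream, STE6 has 2, and all capped positions lie between 23 and 55 bases upstream.

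In WT S288C the 6 genes ranked at percentiles 83.3 to 97.7 among mRNAs, and in haploid WT SK1 at percentiles 3.7 to 13.1. AGA2 was lower in WT W303 (percentile 61.1), and in SK1 the highest ranks were those of STE2 in xrn1-delta (33.8 in diploids, 22.7 in haploids) and of MFA2 in WT diploids (28.8). MFA2 had the highest group mean of the 6 in WT S288C, with densities of 12.2 and 13.3, which placed it at percentile 97.7 among mRNAs. STE2 followed with 4.65 and 4.85 (percentile 94.8), and MFA1 with 3.93 and 3.06 (percentile 93.5). BAR1 had 1.92 and 2.01, AGA2 1.49 in both replicates, and STE6 1.11 and 1.06 (percentile 83.3).

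The order of the 6 genes was not the same in SK1. MFA2 had the highest density of the 6 in 13 of the 16 rRNA-depleted S288C or W303 libraries, and STE2 in the other 3. Among the 8 SK1 libraries STE2 came first in 4, MFA1 in 2 and MFA2 in 2. The ratio of MFA2 to MFA1 density had a median of 1.44 in SK1 (0.247 to 2.26), against 3.10 in S288C and W303 (1.61 to 6.61). The coding sequences of MFA1 and MFA2 share no run longer than 11 bases, and reads were 50 bases long.

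**Figure D2:**
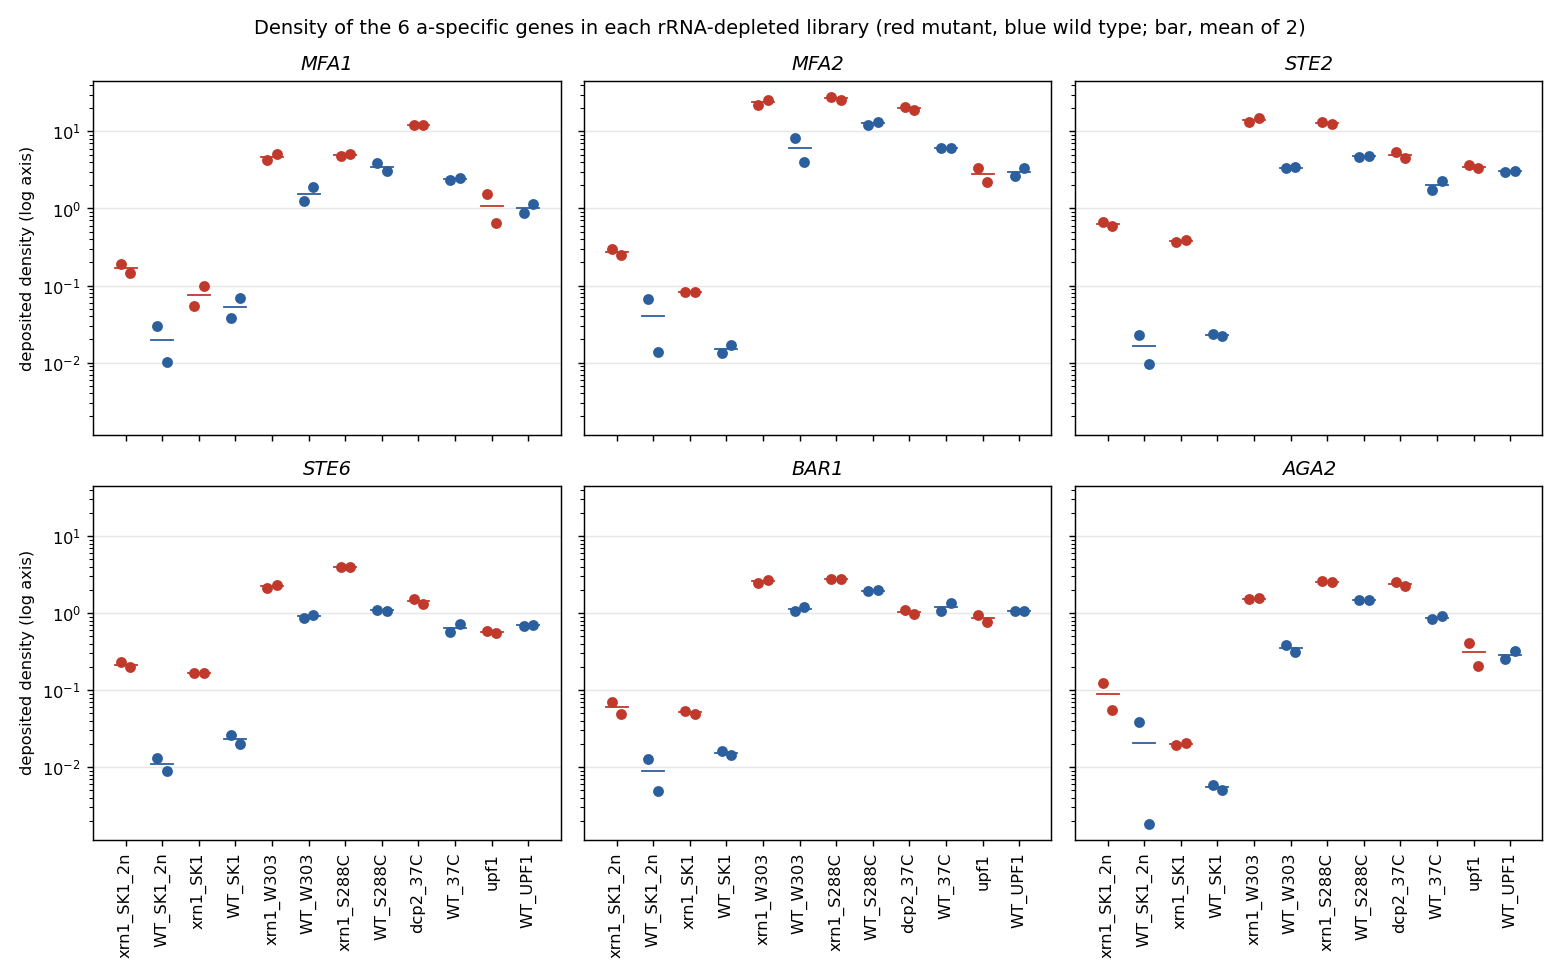
Deposited density (log axis) of each of the 6 genes in every rRNA-depleted library, by group along the x axis; dots are the 2 libraries of a group, bars their mean, red mutants and blue wild types. The 8 SK1 libraries on the left of each panel sit below all 16 S288C and W303 libraries for each of the 6 genes. The share of all mRNAs that separate in this way is not given here.

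Haploid SK1 cells held 47.0 to 838 times less of these mRNAs than S288C cells. MFA2 had densities of 0.0133 and 0.0171 in WT SK1 (6 reads each), against 12.2 and 13.3 in WT S288C. STE2 had 0.0238 and 0.0222 in WT SK1, against 4.65 and 4.85 in WT S288C. AGA2 had 0.00589 and 0.00506 in WT SK1 (6 and 4 reads), against 1.49 in both WT S288C libraries. No library of SK1 overlapped one of S288C for any of the 6 genes. The share of all mRNAs without such overlap is not given here. From bulk RNA, fewer cells using a gene and less RNA per cell cannot be told apart.

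On the log2(density + pseudocount) scale, which understates changes of low genes, the difference of WT SK1 from WT S288C was -9.25 (SE 0.45) for MFA2, -7.37 (SE 0.19) for STE2 and -7.06 (SE 0.60) for AGA2. BAR1 differed by -6.54 (SE 0.19), MFA1 by -5.93 (SE 0.44) and STE6 by -5.25 (SE 0.14). All 6 fell at an adjusted p under 0.05 in limma with Benjamini-Hochberg adjustment over all features, where 29.7% of mRNAs fell and the median mRNA differed by -0.11. The largest adjusted p of the 6 was 4.50e-07, for AGA2. ASG7, a further a-specific gene, fell by 3.90 (SE 0.22), while MF(ALPHA)1 rose by 9.78 (SE 0.65), STE3 by 7.58 (SE 0.57), MF(ALPHA)2 by 6.57 (SE 0.26), SAG1 by 6.35 (SE 0.28) and AFB1 by 4.77 (SE 0.64).

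Between the xrn1-delta strains the same 6 genes fell, with 30.5% of mRNAs falling. The differences of xrn1-delta SK1 from xrn1-delta S288C ran from -8.24 (SE 0.45) for MFA2 to -4.53 (SE 0.14) for STE6, and the levels in SK1 were 23.9 to 323 times lower. STE2 differed by -5.04 (SE 0.19) there. Chromosome 11, which carries STE6, had a median of -1.01 in that comparison, against -0.09 for mRNAs of other chromosomes. Even the highest SK1 density of any library stayed below the lowest of S288C and W303: for AGA2, where the gap was smallest, 0.125 against 0.206, and for BAR1, where it was widest, 0.0708 against 0.777. The share of all mRNAs that separate in this way is not given here.

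W303 differed far less from S288C. In WT, AGA2 had 0.384 and 0.312 in W303, against 1.49 in both S288C libraries, and fell by 2.09 (SE 0.60; adjusted p = 0.0242). BAR1 had 1.07 and 1.20 in WT W303, against 1.92 and 2.01 in WT S288C, and fell by 0.79 (SE 0.19; adjusted p = 0.00546). These 2 of 6 compare with 14.8% of mRNAs that fell. The other 4 genes differed by -0.26 to -1.18 and did not pass; the AGA2 call was lost when any of the 4 libraries was left out (adjusted p = 0.0667 to 0.115). Between the xrn1-delta strains 1 of the 6, STE6, fell in W303 (-0.84, SE 0.14; adjusted p = 5.80e-05), where 7.88% of mRNAs fell. Chromosome 11, which carries STE6, had a median of -0.63 in that comparison, against 0.32 for mRNAs of other chromosomes.

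**Figure D3:**
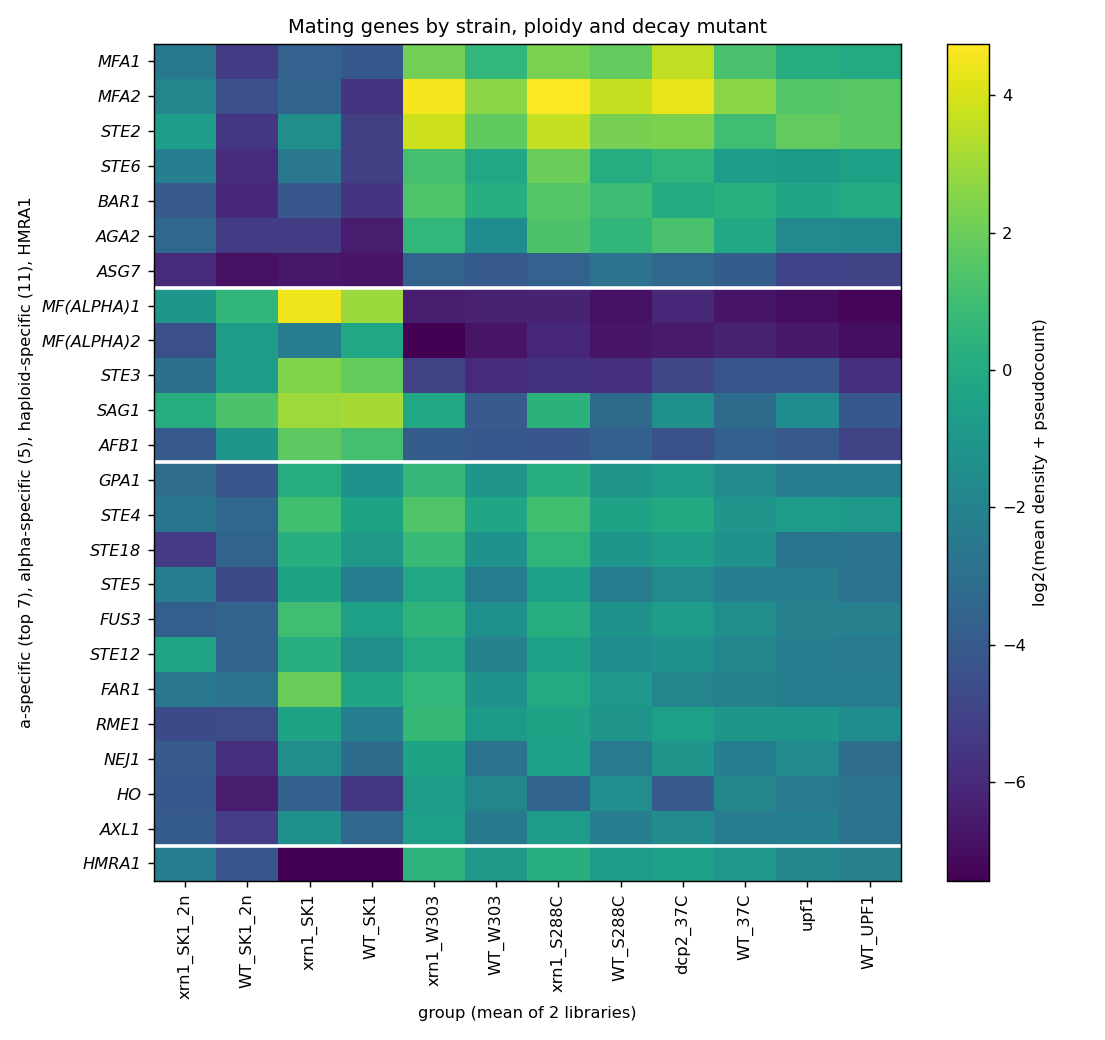
Log2(mean density of 2 libraries + pseudocount), as colour, for a-specific genes, alpha-specific genes, haploid-specific genes and HMRA1 (rows) in 12 rRNA-depleted groups (columns, each mutant left of its wild type). The a-specific rows are darker in the 4 SK1 columns than in the other 8 and the alpha-specific rows bright in haploid SK1, while the haploid-specific rows are darker in diploid than in haploid SK1 of the same genotype.

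Ploidy was compared within SK1. In WT diploids 4 of the 6 genes were lower on the deposited scale, and each of these but MFA1 was higher once libraries were scaled to equal mRNA medians. STE6 had densities of 0.0131 and 0.00898 in WT diploids, against 0.0260 and 0.0201 in WT haploids, and BAR1 had 0.0130 and 0.00495, against 0.0163 and 0.0146. STE6 fell by 0.78 (SE 0.14; adjusted p = 2.49e-05), BAR1 by 0.58 (SE 0.19; adjusted p = 0.00802), MFA1 by 1.26 (SE 0.44; adjusted p = 0.0157) and STE2 by 0.46 (SE 0.19; adjusted p = 0.0300). MFA2 and AGA2 did not pass (0.85 and 0.72).

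At this pseudocount the median of the 6 genes fell less than the median mRNA. On the deposited scale 94.2% of mRNAs fell in WT diploids and the median mRNA changed by -1.41, against a median of -0.52 for the 6 genes. AGA2 in WT haploids (0.00589 and 0.00506) lay near the pseudocount of 0.00577, which understates falls of such low genes. With libraries scaled to equal mRNA medians, 5 of the 6 were higher in diploids: MFA2 by 2.36, AGA2 by 2.23, STE2 by 1.06, BAR1 by 0.93 and STE6 by 0.73 (limma, adjusted p = 0.000275, 0.00249, 0.000478, 0.00102 and 6.17e-05), while MFA1 did not pass (0.25). The share of all mRNAs called higher on this scale is not given here. Scaling shifts every gene of a library equally, after the pseudocount is added, so genes near the pseudocount shift as well. On the deposited scale with a smaller pseudocount, changes were -1.04 for STE6, -0.89 for BAR1, -0.61 for STE2 and -1.52 for MFA1. They were 0.99 for MFA2 and 0.69 for AGA2. The median mRNA with that pseudocount is not given here. Scaling with that pseudocount was not tested.

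The replicates of the WT diploid gave different answers. AGA2 had 0.0390 in replicate 1 (41 reads) and 0.00184 in replicate 2 (3 reads), against 0.00589 and 0.00506 in WT haploids. MFA2 had 0.0665 in replicate 1 and 0.0138 in replicate 2, against 0.0133 and 0.0171. Without replicate 2, AGA2 and MFA2 rose by 1.99 and 1.79 and only STE6 of the 6 fell (-0.61). Without replicate 1, AGA2 and MFA2 differed by -0.56 and -0.09 and did not pass, and the other 4 fell by 0.91 to 1.83. Leaving out a WT haploid library ended the calls of MFA1 (without replicate 2), BAR1 (without replicate 1) and STE2 (without either).

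Other mating genes also fell with most mRNAs in WT diploids. Of the 5 alpha-specific genes all 5 fell, by 0.57 (MF(ALPHA)2) to 2.83 (STE3), and of the 11 haploid-specific genes all 11 fell, with a median of -2.65, where 94.2% of mRNAs fell with a median of -1.41. Without WT diploid replicate 1, 3 alpha-specific genes fell, and without replicate 2, 4 did; all 11 haploid-specific genes fell either way, with medians of -1.99 and -3.38. With libraries scaled to equal mRNA medians, 9 of the 11 haploid-specific genes were lower and 1 higher, while of the alpha-specific genes 1 was lower and MF(ALPHA)2 was higher (0.94). The shares of all mRNAs called lower or higher with this scaling, or without a WT diploid library, are not given here. ASG7 did not pass on the deposited scale (-0.15). Between xrn1-delta diploids and haploids, the 5 alpha-specific genes fell with a median of -5.73 and the 11 haploid-specific genes with a median of -3.27, where 18.3% of mRNAs fell and the median mRNA changed by 0.13.

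In cells lacking Xrn1, 4 of the 6 a-specific genes were higher in diploids than in haploids on the deposited scale. Of these, AGA2 and MFA2 also passed with libraries scaled to equal mRNA medians. AGA2 had 0.125 and 0.0548 in xrn1-delta diploids, against 0.0192 and 0.0206 in xrn1-delta haploids, and MFA2 had 0.295 and 0.248, against 0.0836 and 0.0826. STE2 had 0.672 and 0.595 in xrn1-delta diploids, against 0.369 and 0.395. No diploid library overlapped a haploid one for these 3 genes, but the share of all mRNAs without overlap is not given here. AGA2 rose by 1.80 (SE 0.60; adjusted p = 0.0259), MFA2 by 1.64 (SE 0.45; adjusted p = 0.00931), STE2 by 0.72 (SE 0.19; adjusted p = 0.00398) and STE6 by 0.35 (SE 0.14; adjusted p = 0.0464).

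These 4 of 6 compare with 33.6% of mRNAs that rose and a median mRNA change of 0.13. MFA1 (1.12) and BAR1 (0.17) did not pass, and the BAR1 libraries overlapped. With libraries scaled to equal mRNA medians AGA2 was 1.56 and MFA2 1.40 higher, and BAR1 was at -0.07. Leaving out a library ended the STE6 call whichever library it was, the AGA2 call for 3 of the 4 libraries, and the MFA2 call without xrn1-delta diploid replicate 1 (adjusted p = 0.0604).

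Loss of Xrn1 raised a-specific mRNAs in all 4 backgrounds on the deposited scale. With libraries scaled to equal mRNA medians only STE2 and STE6 were called higher, and only in SK1. On the deposited scale all 6 rose in diploid SK1, where 97.2% of mRNAs rose. STE2 had 0.672 and 0.595 in xrn1-delta diploids, against 0.0231 and 0.00948 in WT diploids. STE6 had 0.229 and 0.201, against 0.0131 and 0.00898. STE2 rose by 4.93 (SE 0.19; adjusted p = 9.79e-17) and STE6 by 3.72 (SE 0.14; adjusted p = 2.39e-17), with the median mRNA at 3.14. MFA2 rose by 2.88 (SE 0.45), MFA1 by 2.86 (SE 0.44), AGA2 by 2.27 (SE 0.60) and BAR1 by 2.19 (SE 0.19), each less than the median mRNA at this pseudocount. In WT diploid replicate 2, AGA2 (0.00184) and BAR1 (0.00495) lay below the pseudocount of 0.00577, which understates such rises. With the smaller pseudocount the rises were 3.12, 3.21, 3.09 and 2.78, in the same order. With voom on recovered reads they were 3.28, 3.3, 3.47 and 2.97. The median mRNA in these settings is not given here. All 6 passed without either WT diploid library; AGA2 was 3.55 without replicate 1 and 0.99 without replicate 2.

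In haploid SK1 4 of the 6 rose, against 92.9% of mRNAs. STE2 had 0.369 and 0.395 in xrn1-delta haploids, against 0.0238 and 0.0222 in WT haploids, a rise of 3.75 (SE 0.19; adjusted p = 9.18e-14). STE6 had 0.167 and 0.166, against 0.0260 and 0.0201, a rise of 2.59 (SE 0.14; adjusted p = 1.36e-13). MFA2 rose by 2.09 (SE 0.45; adjusted p = 0.000630) and BAR1 by 1.44 (SE 0.19; adjusted p = 5.38e-07). MFA1 (0.48, SE 0.44) and AGA2 (1.19, SE 0.60) did not pass.

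In W303 all 6 rose, where 97.6% of mRNAs rose. AGA2 had 1.52 and 1.55 in xrn1-delta W303, against 0.384 and 0.312 in WT W303, a rise of 2.13 (SE 0.60; adjusted p = 0.00420). STE2 had 13.2 and 14.7, against 3.31 and 3.43, a rise of 2.05 (SE 0.19; adjusted p = 1.01e-09). MFA2 rose by 2.04 (SE 0.45), MFA1 by 1.60 (SE 0.44), STE6 by 1.29 (SE 0.14) and BAR1 by 1.18 (SE 0.19).

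In S288C 4 of the 6 rose, against 94.8% of mRNAs. STE6 had 4.02 and 3.94 in xrn1-delta S288C, against 1.11 and 1.06 in WT S288C, a rise of 1.87 (SE 0.14; adjusted p = 2.32e-11). STE2 had 13.1 and 12.5, against 4.65 and 4.85, a rise of 1.43 (SE 0.19; adjusted p = 3.63e-07). MFA2 rose by 1.07 (SE 0.45; adjusted p = 0.0363) and BAR1 by 0.50 (SE 0.19; adjusted p = 0.0183), but the MFA2 call was lost whichever of the 4 libraries was left out (adjusted p = 0.0796 to 0.114) and with the smaller pseudocount (adjusted p = 0.0608), and the BAR1 call in 3 of the 4 cases (adjusted p = 0.0561 to 0.0742). MFA1 (0.50) and AGA2 (0.78) did not pass.

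STE6 lies on chromosome 11, whose mRNAs had a median change of 2.46 in xrn1-delta S288C, against 1.54 for those of other chromosomes; the 2 medians were 3.15 and 3.14 in diploid SK1, 1.55 and 1.55 in haploid SK1, and 1.96 and 1.97 in W303. The part of this in the S288C value of STE6 was not tested.

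Since nearly all mRNAs rose, the 6 genes were also read against the median mRNA, which changed by 1.97 in W303, 1.58 in S288C and 1.55 in haploid SK1. On the deposited scale STE6 in S288C, MFA2 in haploid SK1, and AGA2, STE2 and MFA2 in W303 rose by more than these medians. So did STE2 and STE6 in haploid SK1. In S288C, however, STE6 rose by less than the median of 2.46 for mRNAs of its own chromosome 11. Scaling instead subtracts each library's own mRNA median, which need not remove the same amount. With libraries scaled to equal mRNA medians, STE2 was higher by 2.06 in haploid SK1 (adjusted p = 2.29e-07) and by 1.48 in diploid SK1 (adjusted p = 6.80e-06), and STE6 by 0.90 (adjusted p = 3.50e-06) and 0.28 (adjusted p = 0.0384). These were the only calls higher among the 6 genes on that scale. BAR1 was lower in S288C (-1.26), W303 (-0.95) and diploid SK1 (-1.25), MFA1 in S288C (-1.27) and haploid SK1 (-1.21), and STE6 in W303 (-0.84). The sign of the change turned with this scaling in all 4 backgrounds for MFA1, BAR1 and AGA2, in S288C, W303 and diploid SK1 for MFA2, in S288C and W303 for STE2, and in W303 for STE6.

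**Figure D4:**
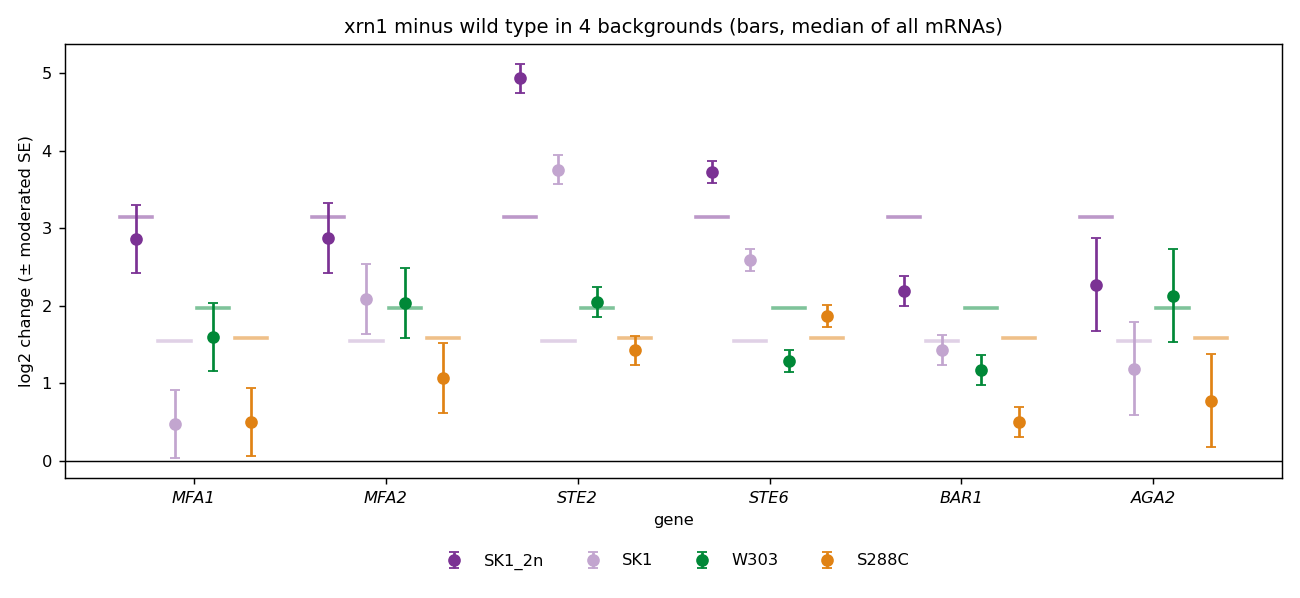
Log2 change of xrn1-delta against wild type (y axis, points with moderated SE) for each gene in diploid SK1, haploid SK1, W303 and S288C, with the median of all mRNAs as a bar in the same colour. STE2 and STE6 in both SK1 sets lie above their bar, at 4.93 and 3.72 in diploids and 3.75 and 2.59 in haploids, while BAR1 lies below its bar in all 4 sets.

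The response to loss of Xrn1 differed between backgrounds for some of the 6 genes. The response in haploid SK1 exceeded that in S288C by 2.33 for STE2 (SE 0.27; adjusted p = 7.47e-07), by 0.93 for BAR1 (SE 0.27; adjusted p = 0.00911) and by 0.72 for STE6 (SE 0.20; adjusted p = 0.00660). These 3 of 6 compare with 13.5% of mRNAs whose interaction term was higher, and the median term was 0.01. Chromosome 11 mRNAs had a median term of -0.91, against 0.05 for mRNAs of other chromosomes. The part of this in the STE6 term was not tested. STE2, BAR1 and STE6 kept these calls with libraries scaled to equal mRNA medians (2.40, 1.01 and 0.79). A pseudocount at the 25th percentile left STE6 at -0.07 and ended the BAR1 call (0.27, adjusted p = 0.243), while STE2 still passed. The terms of MFA1 (-0.02), MFA2 (1.01) and AGA2 (0.41) did not pass.

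Between diploid and haploid SK1 the response was larger in diploids for MFA1 (2.38, SE 0.62; adjusted p = 0.00348), STE2 (1.18, SE 0.27; adjusted p = 0.000499), STE6 (1.14, SE 0.20; adjusted p = 2.54e-05) and BAR1 (0.76, SE 0.27; adjusted p = 0.0167). The same held for 87.7% of mRNAs, whose median term was 1.55. On the mRNA median scale none was larger, and STE6 (-0.62) and BAR1 (-1.0) were smaller. The share of all mRNAs called on that scale, or without a WT diploid library, is not given here. Without WT diploid replicate 1 all 6 terms passed, and without its replicate 2 the terms of MFA1, STE2 and STE6 passed.

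W303 and S288C differed in the response of 1 of the 6 genes. STE6 responded less in W303 (-0.58, SE 0.20; adjusted p = 0.0347), with 32.9% of mRNAs passing in either direction. Chromosome 11 mRNAs had a median term of -0.52 here, against 0.42 for other mRNAs, and 7 of the 8 settings that leave out a library ended the call.

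Cells with the dcp2-7 allele had more of 5 a-specific mRNAs at 37 °C on the deposited scale, where 80.2% of mRNAs rose; BAR1 did not pass on that scale and was lower against the median mRNA. MFA1 had 11.99 and 11.94 in dcp2-7, against 2.32 and 2.50 in WT, a rise of 2.31 (SE 0.44; adjusted p = 0.000322). MFA2 had 20.9 and 19.2, against 6.14 and 6.06, a rise of 1.71 (SE 0.45; adjusted p = 0.00356). MFA1 reached its highest group mean of the 12 in dcp2-7.

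AGA2 rose by 1.43 (SE 0.60; adjusted p = 0.0443) in dcp2-7, STE2 by 1.34 (SE 0.19; adjusted p = 2.26e-06) and STE6 by 1.13 (SE 0.14; adjusted p = 3.09e-07). BAR1 had 1.09 and 0.968 in dcp2-7, against 1.06 and 1.35 in WT; these libraries overlapped and the difference did not pass (-0.22, SE 0.19). Leaving out any of the 4 libraries ended the AGA2 call (adjusted p = 0.0829 to 0.131). The median mRNA changed by 0.71; on the scale of equal mRNA medians MFA1 (1.46) and STE6 (0.28) were higher, BAR1 was lower (-1.07) and the other 3 did not pass.

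Upf1 loss left all 6 genes without a call, where 47.6% of mRNAs passed in either direction. MFA1 had 1.54 and 0.638 in upf1-delta, against 0.863 and 1.15 in its WT, and AGA2 had 0.415 and 0.206, against 0.256 and 0.321, so the upf1-delta replicates spanned those of WT. STE2 differed by 0.19 (SE 0.19), STE6 by -0.30 (SE 0.14; adjusted p = 0.0820) and BAR1 by -0.30 (SE 0.19). At an unadjusted p under 0.05 the count was 1 of 6, STE6. The share of all mRNAs at that unadjusted threshold is not given here. On the mRNA median scale BAR1 and STE6 were lower (-0.91 each), with the median mRNA at 0.32 on the deposited scale. The spread of MFA1 and AGA2 leaves wide intervals, and these values do not show that Upf1 has no effect.

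Levels of these genes also varied among the WT libraries of the same strain label. YAM1 libraries made beside upf1-delta had less of all 6 mRNAs than the YAM1 libraries made beside xrn1-delta on the deposited scale. STE2, STE6 and BAR1 did not keep this call with libraries scaled to equal mRNA medians. AGA2 had 0.256 and 0.321 in the first set, against 1.49 in both of the second, MFA2 had 2.68 and 3.32, against 12.2 and 13.3, and MFA1 had 0.863 and 1.15, against 3.93 and 3.06. The differences were -2.36, -2.09 and -1.79 (SE 0.60, 0.45 and 0.44), and BAR1, STE2 and STE6 fell by 0.90, 0.64 and 0.63. All 6 passed, as did 69.8% of mRNAs in that direction, with a median of -0.55. On the mRNA median scale MFA1, MFA2 and AGA2 kept the call, while BAR1 did not pass (-0.24, adjusted p = 0.342) and STE2 and STE6 turned to 0.02 each.

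At 37 °C, STE2 had 1.72 and 2.26 in YAM1, against 4.65 and 4.85 in the YAM1 libraries with no stated temperature, a fall by 1.27 (SE 0.19; adjusted p = 4.40e-05). STE6 fell by 0.75 (SE 0.14) and BAR1 by 0.71 (SE 0.19), so 3 of 6 fell, against 16.6% of mRNAs. MFA2 (-1.06), AGA2 (-0.76) and MFA1 (-0.53) did not pass. As YAM1 libraries beside upf1-delta also differed from those beside xrn1-delta, temperature and library set cannot be told apart.

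Terminator leaves capped RNA and removes RNA with a 5′ monophosphate. On WT S288C RNA 3 of the 6 rose, against 11.1% of mRNAs. MFA1 had 18.9 and 22.5 in Terminator-treated RNA, against 3.93 and 3.06 in untreated RNA, a rise of 2.57 (SE 0.16; adjusted p = 4.00e-14). MFA2 had 54.0 and 57.1, against 12.2 and 13.3, a rise of 2.12 (SE 0.14), and AGA2 had 2.79 and 3.28, against 1.49 in both, a rise of 1.02 (SE 0.15). STE6 fell by 0.76 (SE 0.15; adjusted p = 0.000295), as did 15.6% of mRNAs, and STE2 (-0.01) and BAR1 (-0.25) did not pass.

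The 3 genes that rose are the shortest of the 6. MFA1, MFA2 and AGA2 have coding lengths of 111, 117 and 264 bases, and BAR1, STE2 and STE6 of 1764, 1296 and 3873. Over all mRNAs the median change in WT S288C was 0.24 for the 267 with at most 300 bases and -0.17 for the 3496 with at least 1000. The part of length, and of the different rRNA removal in treated and untreated libraries, was not tested.

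At 37 °C the same 3 genes rose in treated dcp2-7 RNA (20.4% of mRNAs rose) and in treated WT RNA (17.9%). MFA1 had 43.7 and 46.5 in treated dcp2-7 RNA, against 11.99 and 11.94 in untreated, a rise of 1.91 (SE 0.16). In WT at 37 °C it had 10.5 and 15.1 in treated RNA, against 2.32 and 2.50, a rise of 2.39 (SE 0.16). MFA2 rose by 2.13 and 2.14 and AGA2 by 1.15 and 1.25 in dcp2-7 and WT. The responses in dcp2-7 and WT did not differ for any of the 6 at an adjusted p under 0.05, where 0.035% of mRNAs passed. By limma 1 of the 6, MFA1 (-0.47, SE 0.22), had an unadjusted p under 0.05. The share of all mRNAs at that unadjusted threshold is not given here. Voom on recovered reads also gave no call.

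In xrn1-delta RNA the treatment lowered 4 of the 6, against 88.4% of mRNAs. STE2 had 4.33 and 4.58 in treated xrn1-delta RNA, against 13.1 and 12.5 in untreated, a fall by 1.52 (SE 0.16; adjusted p = 4.57e-10). BAR1 had 1.03 and 1.18, against 2.79 and 2.78, a fall by 1.33 (SE 0.15), STE6 fell by 1.16 (SE 0.15) and AGA2 by 0.48 (SE 0.15). MFA1 and MFA2 rose, by 0.74 (SE 0.16) and 0.67 (SE 0.14), as did 1.78% of mRNAs. The median mRNA changed by -1.10, and on the scale of equal mRNA medians AGA2 was higher (0.75) and STE2 lower (-0.28), with BAR1 (-0.09) and STE6 (0.08) no longer passing.

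The treatment response in xrn1-delta was lower than in WT S288C for MFA1 (-1.82, SE 0.22), STE2 (-1.51, SE 0.22), AGA2 (-1.50, SE 0.21), MFA2 (-1.45, SE 0.20) and BAR1 (-1.08, SE 0.21), with adjusted p between 9.17e-08 and 4.50e-05. These 5 of 6 compare with 87.8% of mRNAs and a median term of -1.03. STE6 did not pass (-0.40, SE 0.21). On the mRNA median scale MFA1 (-0.68), STE2 (-0.37) and AGA2 (-0.35) remained lower, and STE6 was higher (0.75).

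**Figure D5:**
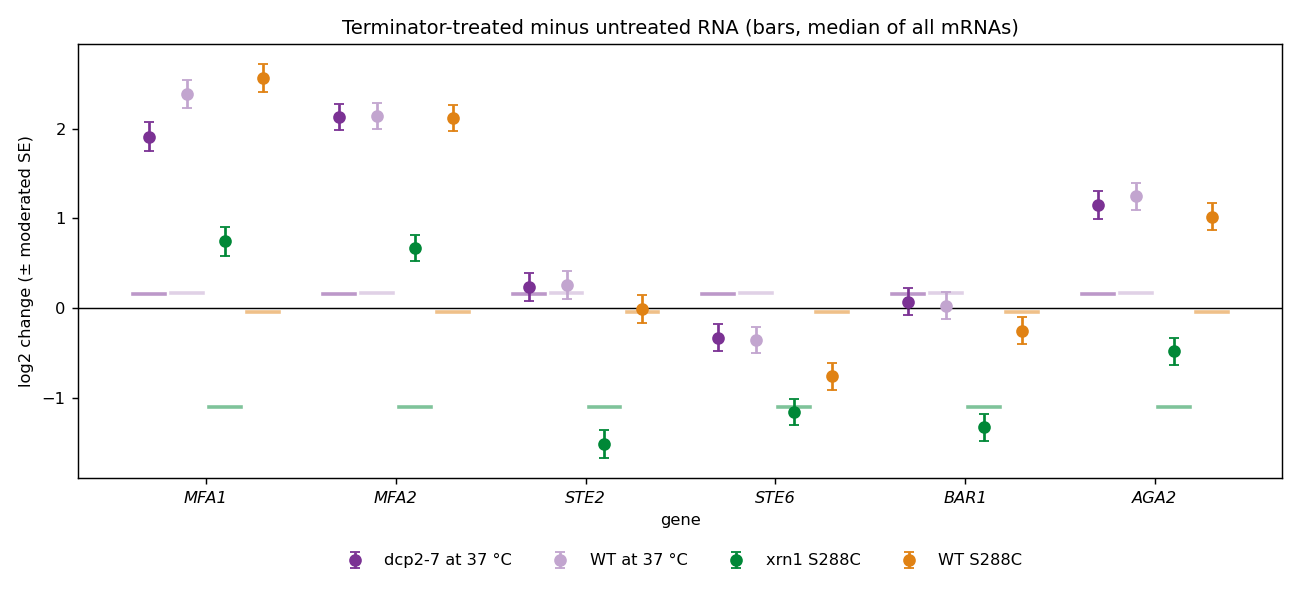
Log2 change of Terminator-treated against untreated RNA (y axis, points with moderated SE) for each gene in dcp2-7 at 37 °C, WT at 37 °C, xrn1-delta S288C and WT S288C, with the median of all mRNAs as a bar. MFA1, MFA2 and AGA2 lie above the bar in each set, with MFA1 at 2.57 in WT S288C and 0.74 in xrn1-delta.

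A single annotated feature overlaps any of the 6 genes. SUT612, a stable unannotated transcript of 1569 bases on chr9:321911-323479, minus strand, runs opposite BAR1 and overlaps it by 1138 bases. It had 0.175 and 0.190 in haploid xrn1-delta SK1, against 0.0230 and 0.0258 in haploid WT SK1, a rise of 2.65 (SE 0.17; adjusted p = 1.60e-12). In diploid SK1 it rose by 3.45 (SE 0.17), or by 3.53 without WT diploid replicate 1 and 3.37 without replicate 2. It rose by 0.91 (SE 0.17) in W303, 0.88 (SE 0.17) in S288C, 0.87 (SE 0.17) in upf1-delta and 0.52 (SE 0.17) in dcp2-7. The median mRNA changed by 1.55 in haploid SK1, 3.14 in diploid SK1, 1.97 in W303, 1.58 in S288C, 0.32 in upf1-delta and 0.71 in dcp2-7. With libraries scaled to equal mRNA medians SUT612 changed by 0.95 in haploid SK1 (limma, adjusted p = 1.04e-05) and by 0.01 in diploid SK1.

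SUT612 went the opposite way to BAR1 between backgrounds. It was 1.42 (SE 0.17; adjusted p = 3.38e-07) higher in WT SK1 than in WT S288C, where BAR1 differed by -6.54, and its response to loss of Xrn1 was 1.77 (SE 0.24) larger in haploid SK1 than in S288C. In the haploid xrn1-delta SK1 libraries SUT612 exceeded BAR1, which had 0.0539 and 0.0493, whereas in xrn1-delta S288C it had 0.0144 and 0.0155, against 2.79 and 2.78 for BAR1. The libraries are strand-specific per the labels' protocols; how many reads cross from a strong gene to the other strand was not tested.

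Genes that act with these 6 moved less between SK1 and S288C. The 7 genes that process a-factor include RAM1 and RAM2, the farnesyltransferase subunits, STE14, the methyltransferase, and the proteases STE24, RCE1, AXL1 and STE23. In WT SK1 against WT S288C, where 19.1% of mRNAs rose and 29.7% fell, none of them rose and 3 fell (AXL1 -1.22, SE 0.28; RAM2 -0.49, SE 0.15; STE23 -0.41, SE 0.13), with a median of -0.13. All 7 rose without Xrn1 in each of the 4 backgrounds, as did 92.9% to 97.6% of mRNAs. Their median change was below that of all mRNAs each time: 2.33 against 3.14 in diploid SK1 (2.10 and 2.74 without WT diploid replicate 1 or 2), 1.47 against 1.55 in haploid SK1, 1.74 against 1.97 in W303 and 1.40 against 1.58 in S288C.

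Of 11 haploid-specific genes 4 fell in WT SK1 against WT S288C and none rose, a share near that of all mRNAs; HO, the mating type switching endonuclease, fell by 4.003 (SE 0.13), AXL1 as above and RME1, a repressor of meiosis, by 1.05 (SE 0.32). Of 8 pheromone-induced genes 5 rose and none fell, where 19.1% of mRNAs rose, with PRM1, a cell fusion protein, at 1.45 (SE 0.20), FIG1 at 1.88 (SE 0.28) and KAR4, a transcription factor of karyogamy, at 1.05 (SE 0.13). Of 10 regulators that include MCM1 none rose and 4 fell, where 29.7% of mRNAs fell, with SIR2 at -0.52 (SE 0.12), SIR4 at -0.48 (SE 0.13) and STE20 at -0.40 (SE 0.12); MCM1 did not pass (-0.15). Of the 6 genes of the mating type cassettes 5 rose and HMRA1 fell by 6.72 (SE 0.19), with the limit on shared sequence given above.

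Over the 24 rRNA-depleted libraries, the genes outside the family whose log2 levels followed the mean of the 6 most closely were VTC3 (Pearson r = 0.974), PHO5 (0.974), SPL2 (0.973), REE1 (0.965) and PHO84 (0.958). PHO5 encodes a secreted acid phosphatase, PHO84 a phosphate transporter, VTC3 a subunit of the vacuolar polyphosphate synthase and SPL2 an inhibitor of the low-affinity phosphate transport. The 6 genes themselves had r of 0.974 to 0.994 with their mean. These points share strain and library, and the 8 SK1 libraries lay at the low end for all 5: PHO84 ranged from 0.00676 to 1.13 in SK1, against 7.75 to 52.5 in S288C and W303. For each of the 5, as for the 6 genes, the highest SK1 density lay below the lowest of S288C and W303. Within the 16 S288C and W303 libraries r was 0.974 for SPL2, 0.905 for PHO84, 0.904 for PHO5, 0.780 for VTC3 and 0.725 for REE1.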

How the data were processed

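Per the labels' protocols, RNA was extracted with hot phenol, freed of rRNA or treated with Terminator exonuclease, and sequenced as stranded paired-end libraries. TopHat served for RNA-seq and cutadapt and Bowtie for CAGE, per the submitters' processing notes, with no version or genome build given in the sources used here. The deposited table holds a density signal per feature: reads per nucleotide times 1 factor per library, with snoRNAs summing to the same value everywhere. Multiplying density by length gave whole multiples of 1 value in 100% of values (tolerance 0.01), which recovered the reads. Deposited CAGE files hold positions (other: pooled per genotype, no height).

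The limma package (3.58.1, R 4.3.3), with a mean-variance trend and robust moderation, was run on log2(density + pseudocount) of 24 rRNA-depleted libraries (pseudocount 0.00577, the 5th percentile; 9712 features; 12 residual degrees of freedom) and of 16 libraries for Terminator (0.00841; 9615 features; 8 degrees of freedom). Features at the pseudocount or more in 2 libraries were kept. P-values were adjusted (Benjamini-Hochberg) over all features, with calls at 0.05, and measure the spread between labelled replicates. The genes and gene lists were chosen with earlier results of these data known. Named are the 6 genes, the alpha-specific genes and ASG7, up to 3 genes of each other list with the smallest adjusted p, the overlapping lncRNA and the genes most alike. The fit was tested on simulated data. Alternatives were other pseudocounts, no filter, scaling to equal mRNA medians, only the compared groups, a replicate block, voom on recovered reads, and leaving out each library. Groups came from the labels; the Terminator columns of xrn1-delta and WT lack a background name and were matched by title.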

Additional observations from a re-analysis of the deposited data

Results flagged for a closer look

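Some responses differed between groups by their interaction term in limma (Benjamini-Hochberg adjusted p under 0.05). The xrn1-delta response was larger in haploid SK1 than in S288C for STE2 (2.33), STE6 (0.72), BAR1 (0.93) and SUT612 (1.77), the transcript opposite BAR1. It was larger in diploid than in haploid SK1 for MFA1 (2.38), STE2 (1.18), STE6 (1.14), BAR1 (0.76) and SUT612 (0.81; 0.89 and 0.73 without WT diploid replicate 1 or 2), all below the median mRNA term of 1.55 except MFA1. It was smaller in W303 than in S288C for STE6 (-0.58). With libraries scaled to equal mRNA medians, the diploid minus haploid term of SUT612 was -0.95 (limma, adjusted p = 0.000544).

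The Terminator response was lower in xrn1-delta than in WT S288C for MFA1 (-1.82), MFA2 (-1.45), STE2 (-1.51), BAR1 (-1.08) and AGA2 (-1.5), with the median mRNA at -1.03. Groups of 2 libraries are too small for a check on single outlying libraries.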

How the results depend on the processing

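The strain result held under every alternative: all 6 genes were lower in SK1 than in S288C, in WT and in xrn1-delta, without any library and at every pseudocount and scaling. No filter on low values, and a CAGE window of 100 bases, changed no result. The replicate numbers only named the libraries: deviations of same-numbered libraries correlated between -0.355 and 0.252. Depth limits WT SK1 most, where AGA2 had 3 to 41 reads. Causes of the changes below were not tested, beyond the shift of the mRNA median that the scaling removes. The share of all mRNAs called in each setting below is not given here.

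With libraries scaled to equal mRNA medians, the number of the 6 genes called higher in xrn1-delta was 0 in S288C (4 on the deposited scale), 0 in W303 (6), 2 in haploid SK1 (4) and 2 in diploid SK1 (6), and the number called lower was 2, 2, 1 and 1 (0 each). In dcp2-7 2 were higher (5) and 1 lower (0), and in upf1-delta 2 were lower (0). In WT diploids 5 were higher (0) and 0 lower (4), in xrn1-delta diploids 2 were higher (4), and in the WT libraries beside upf1-delta 3 were lower (6). The diploid minus haploid term was higher for 0 (4) and lower for 2 (0). Terminator lowered 2 in WT (1), 1 in xrn1-delta (4), 1 in WT at 37 °C (0) and 1 in dcp2-7 (0), and the xrn1-delta minus WT term was higher for 1 (0) and lower for 3 (5).

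This scaling turned the sign of the following log2 values. For xrn1-delta in S288C they became -1.27 for MFA1, -0.69 for MFA2, -0.34 for STE2, -1.26 for BAR1 and -0.99 for AGA2. In W303 they became -0.53 for MFA1, -0.09 for MFA2, -0.08 for STE2, -0.84 for STE6, -0.95 for BAR1 and -0.00 for AGA2. In haploid SK1 they became -1.21 for MFA1, -0.26 for BAR1 and -0.50 for AGA2, and in diploid SK1 -0.59 for MFA1, -0.57 for MFA2, -1.25 for BAR1 and -1.17 for AGA2. In upf1-delta STE2 became -0.42 and AGA2 -0.58. In WT diploids MFA1 became 0.25, STE2 1.06, STE6 0.73 and BAR1 0.93, and in xrn1-delta diploids BAR1 became -0.07. Between xrn1-delta W303 and S288C STE2 became -0.15, and in WT libraries beside upf1-delta STE2 and STE6 became 0.02. The haploid SK1 minus S288C term of MFA1 became 0.05. The diploid minus haploid terms became -0.97 for MFA2, -0.58 for STE2, -0.62 for STE6, -1.0 for BAR1 and -0.67 for AGA2. For Terminator, STE2 became 0.08 in WT, STE6 0.08 and AGA2 0.75 in xrn1-delta, and BAR1 -0.13 in WT at 37 °C and -0.04 in dcp2-7. The xrn1-delta minus WT terms became 0.75 for STE6 and 0.07 for BAR1, and the dcp2-7 minus WT terms 0.03 for MFA2 and STE2.

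Fitting only the groups compared called 2 lower in upf1-delta (0), 5 lower in WT W303 (2), 3 lower in xrn1-delta W303 (1), 6 lower in WT at 37 °C (3) and 1 lower by Terminator in dcp2-7 (0). It called 4 W303 terms (0) and 5 haploid SK1 terms (3) higher. Called higher in xrn1-delta were 6 in S288C (4), 5 in W303 (6), 5 in haploid SK1 (4) and 5 in diploid SK1 (6). MFA2 did not pass in W303 (limma, adjusted p = 0.0622), nor AGA2 in diploid SK1 (adjusted p = 0.199). A pseudocount of 0.000577 (0.000841 for Terminator) called 2 higher in xrn1-delta S288C (4) and in xrn1-delta diploids (4), 0 lower in WT W303 (2) and 0 lower W303 terms (1), and left MFA1 at 0.02 in the haploid SK1 minus S288C term. A pseudocount at the 25th percentile called 1 lower in upf1-delta (0), 1 lower in WT diploids (4), 5 lower in WT W303 (2), 3 higher W303 terms (0) and 1 higher haploid SK1 term (3), with STE6 at -0.07 and AGA2 at -0.34 in that term. The replicate block called 1 W303 term higher (0) and 0 lower (1), and Terminator lowered 2 in WT (1), 1 in WT at 37 °C (0) and 1 in dcp2-7 (0); it changed the side of the threshold for no other count by more than 1.5 times. Voom on recovered reads called 1 lower in upf1-delta (0), 5 lower in WT W303 (2) and 2 higher W303 terms (0), and left AGA2 at -0.02 in upf1-delta and MFA1 at 0.07 in the haploid SK1 minus S288C term.

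Leaving out each library in turn, the lone library being taken to vary like the other groups, gave 2 to 3 genes called higher in xrn1-delta S288C, 1 to 3 in xrn1-delta diploids and 0 to 2 in WT diploids. It gave 1 to 4 called lower in WT diploids, 1 to 2 in WT W303, 0 to 1 for the W303 term and 0 to 1 by Terminator in WT at 37 °C. In upf1-delta MFA1 ran from -0.64 to 0.62, MFA2 from -0.42 to 0.17 and AGA2 from -0.47 to 0.53. In WT diploids MFA2 ran from -0.09 to 1.79, STE2 from -0.91 to 0.00 and AGA2 from -0.56 to 1.99, and in xrn1-delta diploids BAR1 ran from -0.07 to 0.42. MFA1 ran from -0.21 to 0.04 in xrn1-delta W303 against S288C and from -0.42 to 0.38 in the haploid SK1 term. The diploid minus haploid term ran from -0.15 to 1.73 for MFA2 and from -0.20 to 2.36 for AGA2. Terminator values ran from -0.06 to 0.04 for STE2 in WT, from -0.15 to 0.20 for BAR1 in WT at 37 °C and from -0.02 to 0.16 for BAR1 in dcp2-7. The dcp2-7 minus WT terms ran from -0.29 to 0.26 for MFA2, -0.24 to 0.20 for STE2, -0.16 to 0.21 for STE6, -0.13 to 0.22 for BAR1 and -0.31 to 0.11 for AGA2.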
